A study of Mus musculus with 8 samples.

Results

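Transcripts of the Sonic hedgehog pathway were followed across the mouse choroid plexus through 9 genes picked by name from the pathway. They were the ligand Shh, the receptor Ptch1, the signal transducer Smo, the co-receptor Boc, the ligand-binding antagonist Hhip, the transcription factors Gli1, Gli2 and Gli3, and the Gli inhibitor Sufu. All 9 were among the 23284 genes of the deposited count table, and all 9 passed the filter on low counts. The tissue came from embryos at E18.5, either from the lateral ventricles (telencephalic) or from the fourth ventricle (hindbrain). It was sequenced whole (strain CD1) or as epithelial cells sorted by flow cytometry (strain ICR (CD1)). The sorted cells carried Ttr::RFP, a red fluorescent reporter named for Ttr, the transthyretin gene of the choroid epithelium, and RFP-positive cells were kept. No mutation or drug treatment is named for any group. Each of the 4 groups held 2 biological replicates, and both regions of a replicate came from the same brains, so that n = 2 for every group value. Whole and sorted libraries carry different strain labels and came from different samples, so a preparation difference cannot be told apart from a difference between those brains.

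Hedgehog ligands are secreted proteins that bind Ptch1 and so release Smo from repression in the primary cilium. Active Smo frees the Gli proteins from Sufu: Gli2 is mainly an activator, Gli3 mainly a repressor, and Gli1 is an activator that is itself a target gene. Ptch1, Hhip and Gli1 are textbook targets, and all but Gli1 dampen the signal. In the hindbrain choroid plexus, Shh from the epithelium is known to act on epithelial progenitors and on the growing vessels of the plexus.

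Total counts lay between 8849053 and 31613434 per library. Levels are given as CPM (counts scaled to library size, with sizes adjusted by the TMM method), and fold changes as log2 values ± SE from edgeR's quasi-likelihood fit over all 15698 tested genes. A gene is said to be called where its Benjamini-Hochberg adjusted p in that fit is below 0.05. Groups of 2 libraries often part by chance alone. Statements that regions did not overlap are thus descriptions only, and the share of such genes over all genes is not given here. Libraries of a group differed by more than counting noise, with a chi-square per degree of freedom of 5.16 (telencephalic) and 12.3 (hindbrain) in whole tissue and of 15.8 and 61.1 in the sorted groups. The ribosomal precursor Rn45s took 4.07% to 4.40% of counts in whole tissue and 6.49% to 13.9% in sorted cells. With unscaled library totals the share of called genes that were higher went from 57.6% to 70.7% for the region comparison in whole tissue and from 59.7% to 83.5% in sorted cells. It went from 44.1% to 10.5% for sorted against whole telencephalic libraries and from 46.3% to 20.1% for the hindbrain ones.

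Shh, the ligand, was higher in the hindbrain plexus in both preparations. Hindbrain whole tissue held 299 and 358 Shh counts (12.1 and 16.9 CPM) and hindbrain sorted cells 239 and 224 counts (8.69 and 8.22 CPM). Telencephalic whole tissue held 8 and 0 counts (0.489 and 0 CPM), and telencephalic sorted cells 3 counts in each library (0.113 and 0.186 CPM). The hindbrain and telencephalic values did not overlap in either preparation, and Shh was higher on the hindbrain side in 4 of 4 brains. From summed counts the hindbrain level was 46.2-fold that of the telencephalon in whole tissue (95% counting interval 23.3 to 108) and 60.0-fold in sorted cells (27.4 to 164). Within brains the ratio was 24.6 in brain 1 of the whole tissue (95% counting interval 12.3 to 57.6) and 76.6 and 44.2 in those of the sorted cells. In brain 2 of the whole tissue it was 53.7 with the floor of 3 counts in place of 0, and the lower 95% counting limit was 43.5. The 95% counting intervals were 25.9 to 374 and 14.9 to 216 for the sorted brains, which rest on 3 telencephalic counts each. The library with 0 counts allows a level of up to 0.314 CPM (3 counts). These limits cover counting error only, since amplified reads without molecular identifiers are not independent molecules. In the fit the region effect was 5.56 ± 0.50 in whole tissue (edgeR adjusted p = 3.7e-05) and 5.84 ± 0.53 in sorted cells (edgeR adjusted p = 1.48e-05). The whole-tissue effect was 4.87 without telencephalic whole replicate 2, and 11.3, which is no bound, without replicate 1, where 0 counts remained. The difference between these effects was 0.28 ± 0.86 (edgeR adjusted p = 0.971). In order, the levels ran from hindbrain whole tissue over hindbrain sorted cells to telencephalic whole tissue and telencephalic sorted cells. Neither neighbouring pair within a region was called apart, with sorted minus whole at -0.77 ± 0.32 in the hindbrain (edgeR adjusted p = 0.105) and -1.06 ± 0.87 in the telencephalon (edgeR adjusted p = 0.423). The hindbrain pair was called with library totals as the scale (-0.97, edgeR adjusted p = 0.04) and without the low-count filter (-0.77, edgeR adjusted p = 0.0435).

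The strand setting of the counting is not given in the sources used here, so the transcript 9530036O11Rik, which overlaps Shh exons on the other strand in GENCODE M21, cannot be told apart from Shh where both are covered. It had 16 to 27 counts per hindbrain library, against 224 to 358 for Shh. In the telencephalic libraries it had 7 and 3 counts in whole tissue and 7 and 2 in sorted cells, where Shh had 8 and 0 and 3 and 3, so that the few Shh counts there cannot be told apart from this transcript. Gli1 likewise overlaps Arhgap9, a gene of blood cells, which had 0 to 23 counts per library. In the telencephalic libraries Arhgap9 had 7 and 4 counts in whole tissue and 2 and 0 in sorted cells. Gli1 had 8 and 9 and 1 and 7 there, and cannot be told apart from Arhgap9 where both had counts. Of 5 genes that overlap Shh, Gli1 or Hhip in this way, 9530036O11Rik and Arhgap9 were matched in the count table.

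**Figure D1:**
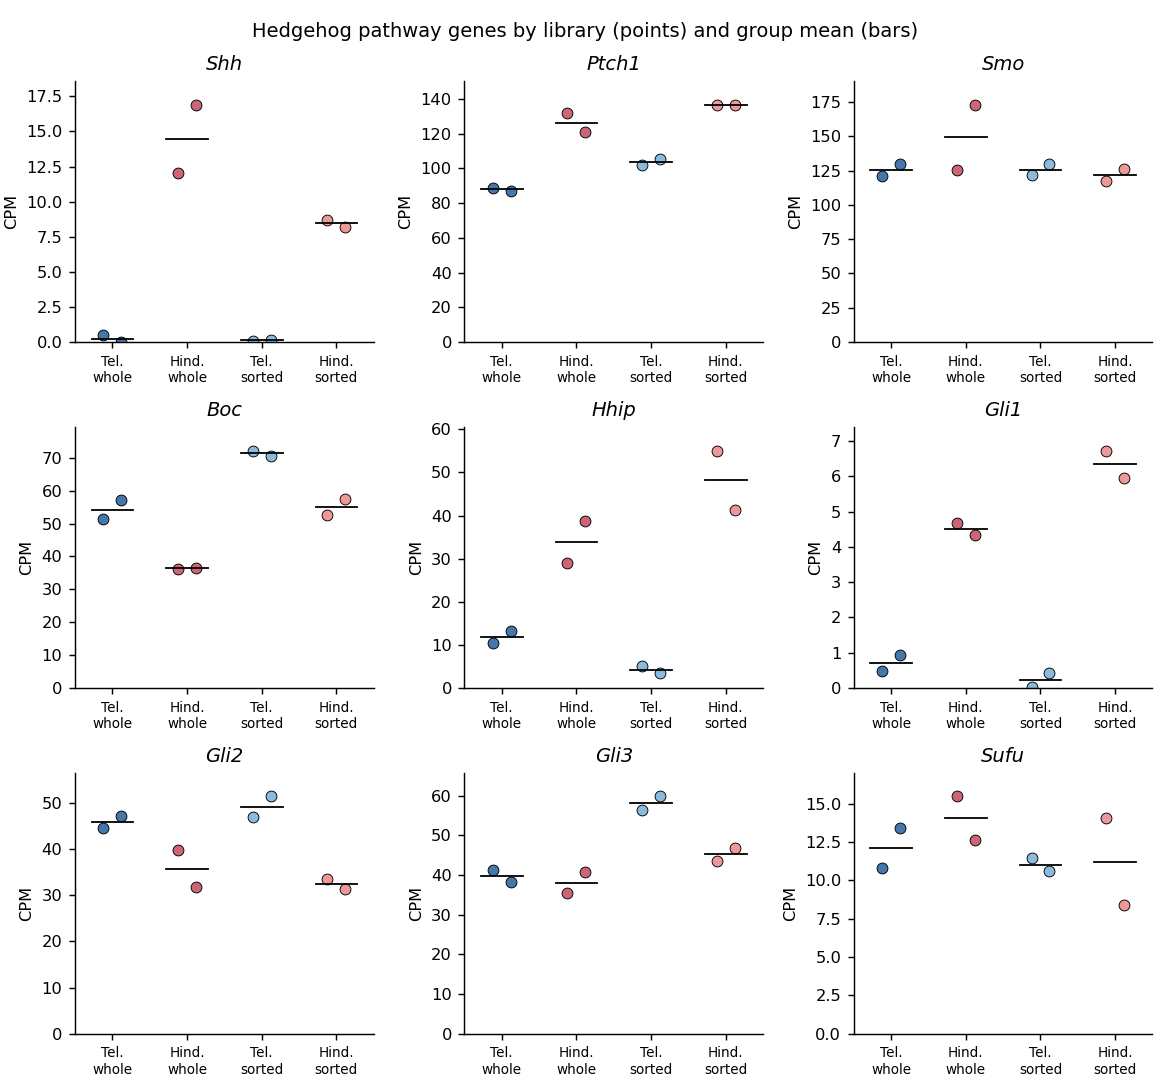
CPM of the 9 Hedgehog pathway genes in each library (points, 2 per group) with the group mean (black bar), on linear axes from 0, for telencephalic (Tel.) and hindbrain (Hind.) whole tissue and sorted cells. Shh, Ptch1, Hhip and Gli1 are higher in every hindbrain library than in any telencephalic one, while Smo and Sufu overlap between the regions.

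The receptor genes moved little next to the ligand, and in both directions. Ptch1, the Hedgehog receptor and a target gene, stood at 88.8 and 87.1 CPM in telencephalic and 132 and 121 CPM in hindbrain whole tissue. In sorted cells it stood at 102 and 105 CPM in telencephalic and 136.6 and 136.5 CPM in hindbrain cells. The regions did not overlap, and Ptch1 was higher on the hindbrain side in 4 of 4 brains, by 1.49-fold and 1.39-fold in the brains of the whole tissue and 1.34-fold and 1.30-fold in those of the sorted cells. The effect was 0.52 ± 0.11 in whole tissue (edgeR adjusted p = 0.0114) and 0.40 ± 0.11 in sorted cells (edgeR adjusted p = 0.0246). The whole-tissue call was lost without telencephalic whole replicate 1 (0.54, edgeR adjusted p = 0.125), telencephalic whole replicate 2 (0.51, 0.128) or hindbrain whole replicate 1 (0.46, 0.0982). The sorted-cell call was lost with only the 4 sorted libraries in the fit (0.39, 0.0658), without telencephalic sorted replicate 1 (0.37, 0.169) or 2 (0.42, 0.0989), without hindbrain sorted replicate 1 (0.39, 0.0542), and without telencephalic whole replicate 1 (0.40, 0.0523) or 2 (0.40, 0.0521).

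Boc, a cell-surface co-receptor that binds Shh, went the other way. It stood at 51.3 and 57.1 CPM in telencephalic whole tissue and 36.3 and 36.5 CPM in hindbrain whole tissue. Sorted cells held 72.2 and 70.6 CPM in the telencephalic and 52.6 and 57.4 CPM in the hindbrain libraries. Within each preparation the regions did not overlap, and Boc was higher on the hindbrain side in 0 of 4 brains. The change was -0.57 ± 0.12 in whole tissue (edgeR adjusted p = 0.0133) and -0.38 ± 0.12 in sorted cells (edgeR adjusted p = 0.0487). The whole-tissue call was lost without any 1 of the 4 whole libraries, at adjusted p of 0.0667 and 0.171 without telencephalic replicates 1 and 2 and of 0.0785 and 0.0836 without hindbrain replicates 1 and 2. The sorted-cell call was lost with DESeq2-type size factors (edgeR adjusted p = 0.0525), with library totals (-0.18, 0.379), without the filter (0.0572) and with only the sorted libraries (0.0973). It was also lost without telencephalic whole replicate 1 (0.0796) or 2 (0.0803), hindbrain whole replicate 1 (0.0643) or 2 (0.0646), telencephalic sorted replicate 1 (0.223) or 2 (0.141), and hindbrain sorted replicate 1 (0.153).

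Smo, the transmembrane transducer, was not called in either preparation. Its level was 121 and 129.9 CPM in telencephalic and 126 and 173 CPM in hindbrain whole tissue, and the regions overlapped, since hindbrain replicate 1 lay between the telencephalic libraries. In sorted cells the levels were 122 and 129.6 CPM on the telencephalic and 117 and 126 CPM on the hindbrain side, again overlapping. The region effects were 0.25 ± 0.14 in whole tissue (edgeR adjusted p = 0.446) and -0.04 ± 0.14 in sorted cells (edgeR adjusted p = 0.887).

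The target genes Hhip and Gli1 were higher in the hindbrain in both preparations. Hhip, a membrane protein that binds and sequesters Hedgehog ligands, stood at 10.4 and 13.2 CPM in telencephalic and 28.9 and 38.7 CPM in hindbrain whole tissue. Sorted cells held 5.07 and 3.47 CPM in the telencephalic and 55.1 and 41.4 CPM in the hindbrain libraries. All 4 hindbrain libraries were above all 4 telencephalic ones. The region effect was 1.53 ± 0.22 in whole tissue (edgeR adjusted p = 0.00116) and 3.47 ± 0.24 in sorted cells (edgeR adjusted p = 2.29e-06). Within brains the ratio was 2.78 and 2.93 for whole tissue and 10.9 and 11.9 for sorted cells.

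Gli1, the Gli gene that the signal itself switches on, was scarce. It had 8 and 9 counts in telencephalic and 116 and 92 in hindbrain whole tissue (0.489 and 0.943 against 4.68 and 4.34 CPM). In sorted cells it had 1 and 7 counts in the telencephalic and 185 and 162 in the hindbrain libraries (0.0378 and 0.434 against 6.73 and 5.94 CPM). No telencephalic library reached the level of a hindbrain one. From summed counts the hindbrain level was 6.89-fold the telencephalic one in whole tissue (95% counting interval 4.20 to 12.1) and 33.7-fold in sorted cells (16.9 to 78.7). Brains differed by more than this for the sorted cells, with ratios of 178 (31.5 to 7067), resting on 1 telencephalic count, and 13.7 (6.50 to 34.6), beside 9.56 and 4.60 for whole tissue. The region effect was 2.73 ± 0.54 in whole tissue (edgeR adjusted p = 0.00899) and 4.96 ± 0.60 in sorted cells (edgeR adjusted p = 0.000116). The latter was 3.85 without telencephalic sorted replicate 1 and 7.18 without replicate 2, and was called in both cases. The whole-tissue call was lost without telencephalic whole replicate 1 (2.25, edgeR adjusted p = 0.196) or replicate 2 (3.19, 0.0514).

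Start-site sequences are shown for Ptch1 and Hhip, the target genes called in both preparations for which the RefSeq promoter table gave a window. A window was matched for 6 of the 9 genes. Each sequence is the 250 bases before the annotated start, 5′ to 3′ on the gene's own strand, in the build GRCm38.p6. The counts were made on mm9, and no coordinate was converted. Capitals mark GC boxes (GGGCGG on either strand), a motif added after the values were seen. The Ptch1 stretch is chr13:63565736-63565985 (minus strand) and the Hhip stretch chr8:80058009-80058258 (minus strand).
Ptch1: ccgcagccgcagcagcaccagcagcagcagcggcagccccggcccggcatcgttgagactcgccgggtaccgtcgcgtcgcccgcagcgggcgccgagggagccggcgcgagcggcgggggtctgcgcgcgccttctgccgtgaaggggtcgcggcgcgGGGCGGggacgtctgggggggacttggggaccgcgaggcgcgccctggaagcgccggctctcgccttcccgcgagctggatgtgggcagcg
Hhip: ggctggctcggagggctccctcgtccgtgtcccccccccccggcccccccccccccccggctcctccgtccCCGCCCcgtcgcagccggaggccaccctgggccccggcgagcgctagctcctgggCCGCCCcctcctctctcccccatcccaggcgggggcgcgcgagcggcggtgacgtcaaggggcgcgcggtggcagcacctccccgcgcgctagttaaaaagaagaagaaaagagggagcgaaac
In the full windows of 300 bases, which run 50 bases past the start, the Gli site GACCACCCA was found on neither strand in any of the 6 genes (Ptch1, Hhip, Smo, Gli2, Gli3, Sufu), nor was its core CCACCCA, which the longer motif contains. The Gli site was present in 0.253% and the core in 9.3% of all 32851 windows of that length, and a window without them says only that these letters are not in it. The GC box, found in 35.7% of windows, occurred 1 time in the Ptch1 and 2 times in the Hhip window. The GC content of the 250 bases was 78.4% for Ptch1 and 76.0% for Hhip.

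The other transcription factors and their inhibitor were not called higher in the hindbrain. Gli2, the main activator, stood at 44.6 and 47.2 CPM in telencephalic and 39.7 and 31.8 CPM in hindbrain whole tissue, and at 47.0 and 51.4 against 33.5 and 31.3 CPM in sorted cells. The regions did not overlap in either preparation, which 2 libraries per group can do without a difference between regions. Its change was -0.36 ± 0.14 in whole tissue (edgeR adjusted p = 0.206) and -0.60 ± 0.14 in sorted cells (edgeR adjusted p = 0.0117). The latter call was lost with library totals as the scale (-0.40, edgeR adjusted p = 0.0998) and without telencephalic sorted replicate 2 (-0.54, 0.0842).

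Gli3, the main repressor of the pathway, was not called between regions. Whole tissue held 41.3 and 38.2 CPM in telencephalic and 35.4 and 40.6 CPM in hindbrain libraries, which overlapped. Sorted cells held 56.4 and 59.8 CPM in telencephalic and 43.5 and 46.9 CPM in hindbrain libraries, which did not. The differences were -0.07 ± 0.13 in whole tissue (edgeR adjusted p = 0.882) and -0.36 ± 0.13 in sorted cells (edgeR adjusted p = 0.0744).

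Sufu, which holds Gli proteins in the cytoplasm, lay between 8.37 and 15.5 CPM in all 8 libraries. The regions overlapped in both preparations, at 0.22 ± 0.24 in whole tissue (edgeR adjusted p = 0.751) and 0.02 ± 0.24 in sorted cells (edgeR adjusted p = 0.972).

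Over the 9 genes, 4 were called higher in hindbrain whole tissue (Shh, Ptch1, Hhip and Gli1), 1 was called lower (Boc) and 4 were not called. Of all tested genes 5.79% were called in that comparison, 3.34% higher and 2.45% lower. In sorted cells the same 4 genes were called higher, Boc and Gli2 lower, and 3 genes were not called, where 15.2% of all tested genes were called, 9.06% higher and 6.12% lower. The median change of the 9 genes was 0.25 in whole tissue and 0.02 in sorted cells, beside medians of 0.01 and 0.00 over all tested genes. The whole-tissue count of 5 called members fell to 2 without telencephalic whole replicate 1 or 2 and to 3 without hindbrain whole replicate 1, and the sorted-cell count of 6 fell to 3 without telencephalic sorted replicate 2. Shh and Hhip kept their calls in both preparations, and Gli1 in sorted cells, under each alternative run.

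**Figure D2:**
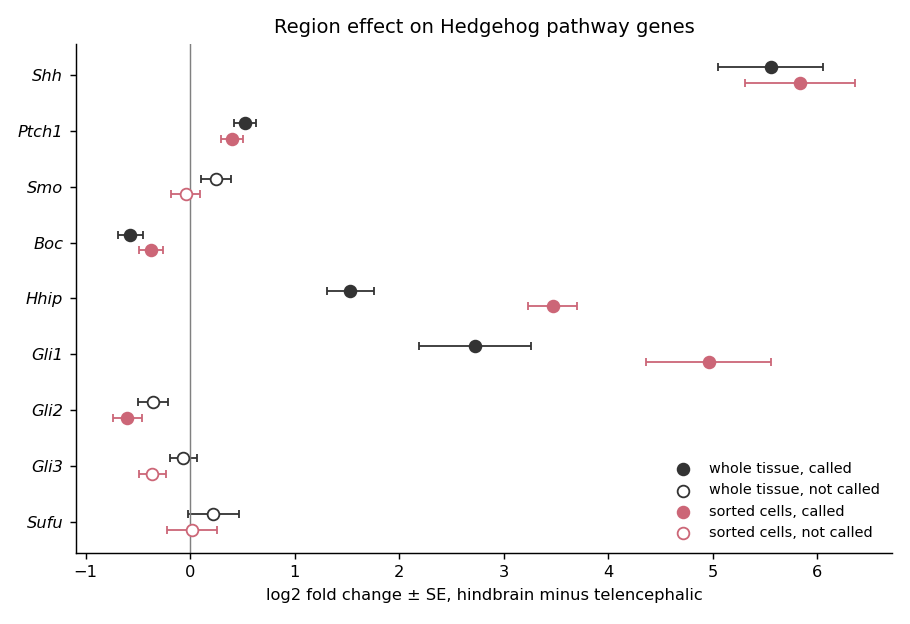
log2 fold change ± SE of the hindbrain minus telencephalic comparison for the 9 genes (rows), in whole tissue (black) and sorted cells (red), with filled points for genes called at an adjusted p below 0.05. Shh lies at 5.56 and 5.84, Gli1 and Hhip lie at smaller positive values that are higher in sorted cells, and Boc lies below 0 in both.

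To set ligand beside targets, CPM was divided by the length of the union of a gene's exons in GENCODE M21, from 2.85 kb for Shh to 9.07 kb for Hhip. That annotation is on GRCm38 and may differ from the one used for counting. On this scale (CPM per kb) Shh reached 5.09 ± 1.20 (SD) for whole tissue of the hindbrain and 2.97 ± 0.12 for its sorted cells. In the same groups Ptch1 reached 16.2 ± 1.0 and 17.5 ± 0.014, Hhip 3.73 ± 0.76 and 5.32 ± 1.07, and Gli1 1.11 ± 0.058 and 1.56 ± 0.14. Per kb, the ligand thus lay above Gli1 and below Ptch1 in both hindbrain groups. The libraries of Shh and Hhip overlapped in whole tissue, and Shh lay below Hhip in sorted cells.

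In the telencephalic groups Shh and Gli1 stood at 0.0859 ± 0.12 and 0.177 ± 0.079 CPM per kb in whole tissue. They stood at 0.0526 ± 0.018 and 0.0582 ± 0.069 in telencephalic sorted cells. Their values overlapped in both telencephalic groups. Telencephalic Ptch1 was still at 11.3 ± 0.15 and 13.3 ± 0.29 CPM per kb in whole tissue and sorted cells. Telencephalic Smo, the most abundant member per kb, was at 33.2 ± 1.6 in whole tissue and 33.2 ± 1.5 in sorted cells. Receptor and transducer transcripts were thus counted at these levels in the region where ligand counts were 0 to 8 per library.

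**Figure D3:**
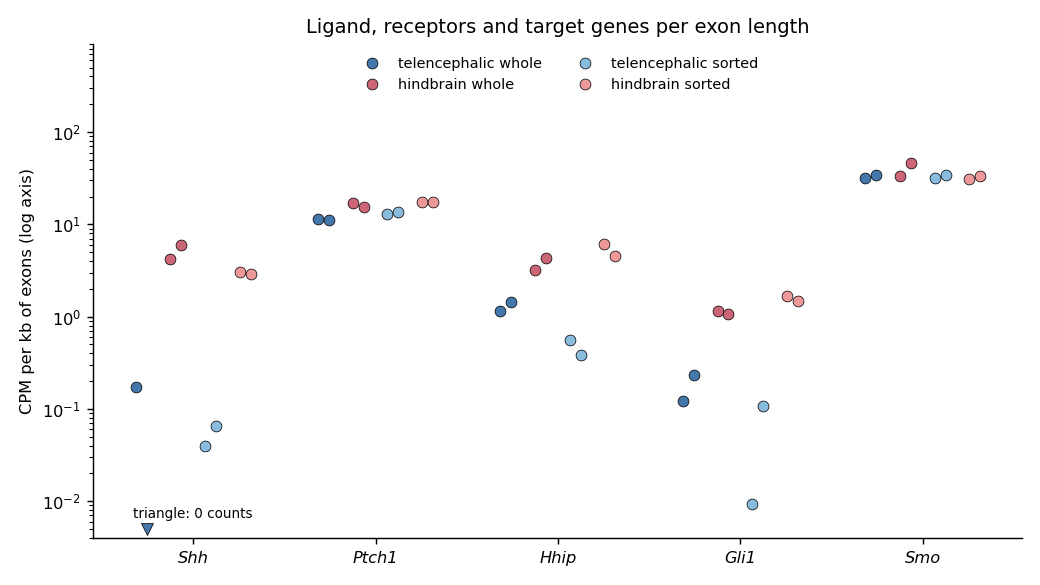
CPM per kb of exons on a log axis for Shh, the receptor Ptch1, the antagonist Hhip, Gli1 and Smo in each library (points, coloured by group; a triangle marks a library with 0 counts). Shh, Ptch1, Hhip and Gli1 part by region, and Ptch1 and Smo lie at or above 11.16 CPM per kb in every library.

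The interaction of region and preparation asked whether the region effect differed between sorted cells and whole tissue. Of the 9 genes 1 was called, Hhip, where 1.34% of all tested genes were called. Its region effect was larger in sorted cells by 1.94 ± 0.32 (edgeR adjusted p = 0.0093). That call was lost without telencephalic whole replicate 2 (1.77, edgeR adjusted p = 0.0792). For Gli1 the difference of effects was 2.24 ± 0.86, which was not called (edgeR adjusted p = 0.406), and for Ptch1 it was -0.13 ± 0.15 (edgeR adjusted p = 0.887). The other 6 genes had differences between -0.30 and 0.28, with none called.

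Sorted cells were then set against whole tissue within each region. In telencephalic samples Hhip was lower in sorted cells, from 11.8 ± 2.0 (SD) to 4.27 ± 1.13 CPM (-1.42 ± 0.25, edgeR adjusted p = 0.00158). Boc and Gli3 were called higher in the sorted cells, at 0.40 ± 0.12 (edgeR adjusted p = 0.0312) and 0.55 ± 0.13 (edgeR adjusted p = 0.00991). That makes 2 members higher and 1 lower of 9, where 22.4% of all tested genes were called, 9.88% higher and 12.5% lower. Gli1 stood at -1.75 ± 0.76 (edgeR adjusted p = 0.118).

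In hindbrain samples Boc was called higher in sorted cells (0.60 ± 0.12, edgeR adjusted p = 0.00408), and 8 members were not called, where 22.1% of all tested genes were called, 10.2% higher and 11.9% lower. Hhip stood at 33.8 ± 6.9 CPM (SD) in whole tissue and 48.2 ± 9.7 CPM in sorted cells, a difference of 0.51 ± 0.20 that was not called (edgeR adjusted p = 0.0913), but was called without the low-count filter (0.51, 0.0355) and without hindbrain sorted replicate 2 (0.70, 0.0326). Smo was called lower with library totals (-0.49, edgeR adjusted p = 0.0329) and without hindbrain whole replicate 1 (-0.51, 0.031), and Sufu without hindbrain sorted replicate 1 (-0.75, 0.0272). Gli1 stood at 0.49 ± 0.42 (edgeR adjusted p = 0.435) and Ptch1 at 0.11 ± 0.11 (edgeR adjusted p = 0.489).

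These small differences depend on the scale. With library totals the median of all genes moved to -0.30 in the telencephalic and -0.19 in the hindbrain comparison, and the telencephalic Boc and Gli3 calls were lost (0.08, edgeR adjusted p = 0.692, and 0.23, 0.237). Both were also lost without telencephalic whole replicate 1 (edgeR adjusted p = 0.251 for Boc and 0.0573 for Gli3) or 2 (0.0838 and 0.0986) and without telencephalic sorted replicate 2 (0.0994 and 0.0653), and Boc without telencephalic sorted replicate 1 (0.148). Without telencephalic sorted replicate 2 Gli1 was called lower in the sorted cells (-3.97, edgeR adjusted p = 0.0139), where the remaining library held 1 count.

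**Figure D4:**
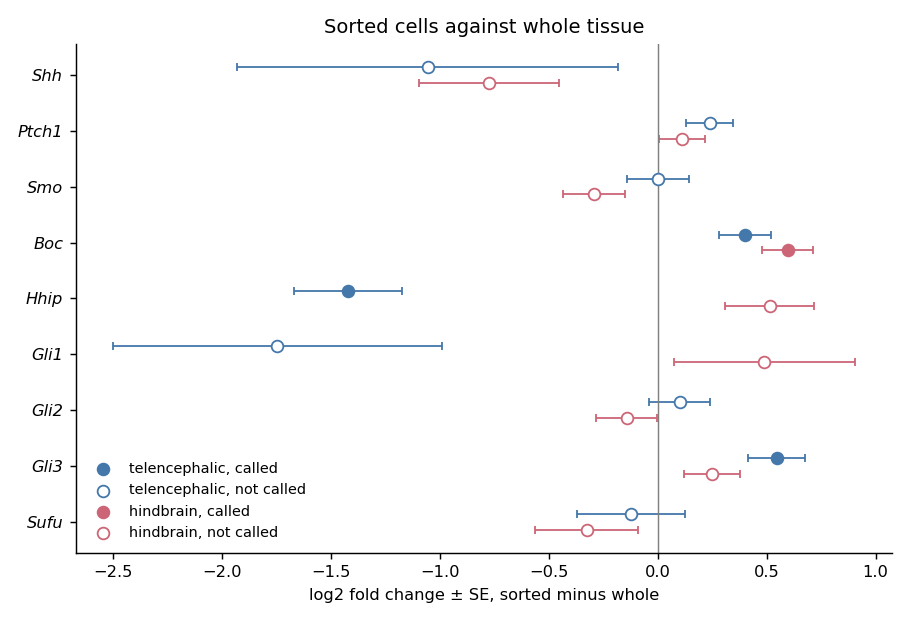
log2 fold change ± SE of sorted minus whole for the 9 genes in telencephalic (blue) and hindbrain (red) samples, with filled points for called genes. Hhip lies at -1.42 in the telencephalic and 0.51 in the hindbrain comparison, and Boc lies above 0 in both.

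Markers of the epithelium and of other cell types also differed between the groups. Sorted libraries held Ttr, the defining epithelial marker, at 158987 to 281816 CPM, beside 139350 to 187027 CPM in whole tissue. Of 9 epithelial markers, Ttr was called lower in hindbrain sorted cells (-0.54 ± 0.13, edgeR adjusted p = 0.0118) and Folr1, a folate receptor of the epithelium, in both preparations (-0.59 ± 0.10 in whole tissue and -0.72 ± 0.10 in sorted cells, edgeR adjusted p = 0.00416 and 0.000539). The other 7 were not called. The hindbrain sorted cells held more transcripts of stroma than the telencephalic ones. The summed level of 9 mural cell markers was 399 to 421 CPM in telencephalic and 380.0 to 460.3 CPM in hindbrain whole tissue. It was 69.5 to 76.5 CPM in telencephalic and 264 to 293 CPM in hindbrain sorted cells. Of the 9, 0 were called between regions in whole tissue (0 at an unadjusted p below 0.05, and 0 by DESeq2), 7 were called higher in hindbrain sorted cells, and 5 of 9 were called in the interaction, the contrast in which Hhip was called. Of all tested genes 5.79% were called in whole tissue, 9.06% were called higher in sorted cells and 1.34% were called in the interaction. Pdgfrb, a pericyte receptor, stood at 30.5 and 25.7 CPM in telencephalic and 113 and 91.9 CPM in hindbrain sorted cells.

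The 7 mesenchymal markers summed to 657 to 685 CPM in telencephalic and 1059 to 1370.4 CPM in hindbrain sorted cells, with 6 of 7 called higher in the hindbrain cells, beside 4 of 7 in whole tissue. The remaining one, Pdgfra, was at 350.4 to 411 CPM in every library. In whole tissue the 7 mesenchymal markers summed to 959 to 1118 CPM in telencephalic and 1334 to 1479 CPM in hindbrain libraries. Sorted against whole, 5 of 7 were called lower in the telencephalon and 0 of 7 in the hindbrain. Of all tested genes 12.5% and 11.9% were called lower in these comparisons. The 7 macrophage markers summed to 28.5 to 53.8 CPM in telencephalic and 135 to 184 CPM in hindbrain sorted cells, with 7 of 7 called higher. Their whole-tissue sums were 127 to 143 CPM in telencephalic and 176 to 182 CPM in hindbrain libraries. Sorted against whole, 5 of 7 were called lower in the telencephalon and 1 of 7 in the hindbrain. Mesenchymal and macrophage sums of hindbrain sorted cells thus overlapped those of hindbrain whole tissue. The 8 endothelial markers summed to 106 to 127 CPM in all sorted libraries against 584 to 621 CPM in whole tissue. Most of the sorted sums came from 1 gene, Kdr, at 91.4 and 104 CPM in telencephalic and 74.4 and 82.3 CPM in hindbrain sorted cells. Pecam1 went from 60.4 to 62.6 CPM in whole tissue to 0.454 to 1.94 CPM in sorted cells. Between the sorted groups 2 of 8 were called higher in the hindbrain, 0 lower and 6 not called. Cdh5 stood at 9.91 and 8.62 against 42.8 and 36.4 CPM there. Cycling-cell markers had 3 of 7 called higher in hindbrain sorted cells, with sums of 54.8 to 68.3 CPM in telencephalic and 88.1 to 123 CPM in hindbrain cells. Of 6 tested markers of neural progenitors and glia, 2 were called higher and 0 lower in hindbrain whole tissue, and 4 higher and 1 lower in hindbrain sorted cells. Of 7 neuronal markers these counts were 2 and 0 in whole tissue and 1 and 2 in sorted cells. Of 3 tested erythroid markers they were 1 and 0 in whole tissue and 0 and 0 in sorted cells. The part of these cells in the Hhip and Gli1 values of the sorted libraries was not tested. Fewer cells of a type and less RNA per cell cannot be told apart in such bulk samples.

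Tissue next to the hindbrain plexus was checked with 7 cerebellar markers, since Purkinje cells make Shh and granule cell precursors respond to it. Their sum was 23.3 and 7.18 CPM in hindbrain whole replicates 1 and 2 and 3.16 to 6.38 CPM in the other 6 libraries. The granule cell genes Atoh1 and Neurod1 stood at 2.74 and 12.6 CPM in hindbrain whole replicate 1, at 0.519 and 1.98 CPM in replicate 2, and at 0 to 0.183 and 0 to 0.110 CPM in the hindbrain sorted libraries. Barhl1, also of granule cells, stood at 4.56 and 1.27 CPM in hindbrain whole tissue, at 0.255 and 1.54 CPM in hindbrain sorted cells and at 0.367 to 0.839 CPM in the telencephalic libraries. Of the Purkinje cell genes, Car8 stood at 2.84 to 4.40 CPM in all 8 libraries with the regions overlapping, Pcp2 was at most 0.567 CPM, Calb1 at most 0.323 CPM, and Pvalb had 0 counts in every library. Whether Purkinje cells express these genes at E18.5 was not tested, so low values do not show that such cells were absent. The part of cerebellar tissue in the whole-tissue Shh, Hhip and Gli1 values was not tested.

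**Figure D5:**
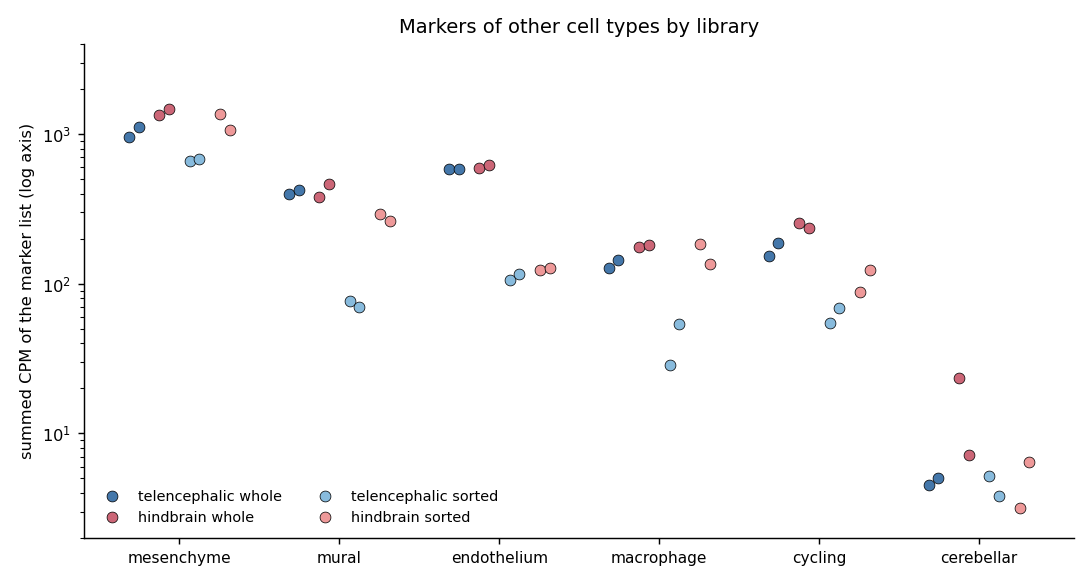
Summed CPM of 6 marker lists on a log axis in each library (points, 2 per group). Mural, mesenchymal and macrophage sums of the telencephalic sorted cells lie below those of the hindbrain sorted cells. The endothelial sums of both sorted groups lie between 106 and 127 CPM, most of it from Kdr (74.4 to 104 CPM).

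Other genes of the pathway were taken from lists of ligands and ligand release, transduction and the cilium, and reported targets. Ligands and genes of ligand release had 6 of 8 members tested. The whole-tissue comparison called 0 of them higher and 1 lower, leaving 5 uncalled, and the sorted-cell comparison called 1 higher and 2 lower, leaving 3. Scube3, of a family of secreted proteins that help release the ligand, was called lower in the hindbrain, at 169 ± 3.9 (SD) against 119 ± 18 CPM in whole tissue (-0.51 ± 0.13, edgeR adjusted p = 0.0326) and 184 ± 0.95 against 125 ± 11 CPM in sorted cells (-0.55 ± 0.12, edgeR adjusted p = 0.00997). Its relative Scube2 was lower in hindbrain sorted cells, at 3.97 and 3.16 against 1.27 and 1.54 CPM (-1.35 ± 0.30, edgeR adjusted p = 0.01). Scube1 was higher there, at 2.08 and 0.682 against 6.73 and 3.78 CPM (1.85 ± 0.46, edgeR adjusted p = 0.017). The Scube3 call was lost with library totals (edgeR adjusted p = 0.14 in whole tissue and 0.122 in sorted cells), in whole tissue without telencephalic whole replicate 1 (0.182) or 2 (0.224), hindbrain whole replicate 1 (0.258) or telencephalic sorted replicate 1 (0.0589) or 2 (0.06), and in sorted cells without telencephalic sorted replicate 1 (0.0718) or 2 (0.0521). Scube1 was not called without telencephalic sorted replicate 2 (0.1) or hindbrain sorted replicate 1 (0.0804), nor Scube2 without telencephalic sorted replicate 1 (0.0877) or with only the sorted libraries (0.0771). The other 2 ligands were scarce and are named after their values were seen. Dhh had 20 counts in each hindbrain sorted library and 0 to 4 elsewhere (2.86 ± 0.93 in sorted cells, edgeR adjusted p = 0.0578). Ihh, not tested, had 22 counts in hindbrain sorted replicate 2 and 0 to 2 elsewhere.

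Of 13 genes of transduction and the cilium, all tested, 0 were called between regions in either preparation by edgeR or by DESeq2, with 2 in whole tissue and 1 in sorted cells at an unadjusted edgeR p below 0.05. Of all tested genes 5.79% were called in whole tissue and 15.2% in sorted cells. For a list of 13 a count of 0 is near these shares and says little about the list. The most abundant, the kinases Gsk3b and Csnk1a1, which prime Gli proteins for processing, differed by 0.03 ± 0.10 and -0.01 ± 0.11 in whole tissue and by -0.02 ± 0.10 and -0.07 ± 0.11 in sorted cells. Among 12 other reported targets 8 were tested. In whole tissue 0 were called by edgeR (2 at an unadjusted p below 0.05, and 0 by DESeq2), and in sorted cells 2 were higher and 6 not called. Of all tested genes 5.79% were called in whole tissue, and 9.06% were called higher in sorted cells. Foxf2, a forkhead factor of mesenchyme and pericytes, stood at 1.32 and 0.682 CPM in telencephalic and 5.46 and 6.97 CPM in hindbrain sorted cells (2.57 ± 0.32, edgeR adjusted p = 0.000178). Its region effect in whole tissue was 0.48 ± 0.29, and the interaction was called (2.09 ± 0.43, edgeR adjusted p = 0.0345), as for Hhip. The interaction call of Foxf2 was lost without any 1 of the 4 whole libraries or without telencephalic sorted replicate 2, at 1.75 to 2.23 (edgeR adjusted p = 0.102 to 0.2). Ccnd1, a cyclin of early cell cycle entry, stood at 43.7 and 45.1 against 58.7 and 60.4 CPM in sorted cells (0.42 ± 0.12, edgeR adjusted p = 0.0311), and that call was lost without any 1 of the 4 sorted libraries (edgeR adjusted p = 0.0555 to 0.193). The median change of the 8 target genes was 0.34 in whole tissue and 0.69 in sorted cells, beside 0.01 and 0.00 over all tested genes. The 8 include Olig2, with 14 and 11 counts in hindbrain whole tissue and 0 to 3 in the other libraries. It passed the low-count filter only through the hindbrain, which raises these medians by selection. They are thus no measure of a shift of the list. Foxa2 and Nkx2-2, targets in the ventral neural tube that were not tested, had 0 to 4 and 0 counts per library.

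The genes whose levels ran most like those of Shh over the 8 libraries were ranked by Pearson's r of log2(CPM + 0.5) among 13905 genes with a mean of at least 1 CPM. This is a description, since the libraries share 4 groups. The leading genes included Hadhb, a mitochondrial fatty acid oxidation gene (r = 0.995), C130021I20Rik (0.991), the homeobox gene Lmx1b (0.99) and the enkephalin precursor Penk (0.99). Of the members, Gli1 stood at rank 178 (r = 0.92), Hhip at rank 329 (0.88) and Ptch1 at rank 358 (0.87), followed by Smo (0.38), Sufu (0.20), Gli3 (-0.46), Boc (-0.76) and Gli2 (-0.90), the last at rank 13682. For Gli1 the leading genes were the chaperone Hsp90aa1 (r = 0.995), the procollagen protease Adamts2 (0.992), the splicing regulator Mbnl1 (0.992), the cytokine receptor Osmr (0.991) and the protease inhibitor Serpinb1a (0.991). Of the members, Hhip stood at rank 89 for Gli1 (r = 0.95), Shh at 187 (0.92) and Ptch1 at 542 (0.84), followed by Smo (0.22), Sufu (0.19), Gli3 (-0.53), Boc (-0.65) and Gli2 (-0.89).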

How the data were processed

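Gene expression was measured by RNA sequencing in 8 libraries, 2 per group. Per the labels' protocols, total RNA was turned into cDNA and pre-amplified (NuGEN Ovation), then sequenced from both ends as TruSeq libraries. Tools in the submitters' processing notes are HTSeq, TopHat2 2.0.4 with Bowtie2 2.0.5, CASAVA 1.8.2 and DESeq 1, with mm9 as the build. Annotation and strand setting: not given in the sources used here. Raw counts were deposited by the authors, 1 whole number for each gene symbol and library.

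From these counts edgeR 4.0.16 (R 4.3.3) computed every test: a low-count filter (filterByExpr at a count of 10 and a total of 15), TMM factors, 4 group means over all 8 libraries, quasi-likelihood F tests for 5 contrasts, and Benjamini-Hochberg adjustment over 15698 genes. SE is the log2 fold change divided by the square root of F. On data simulated with known answers the fit recovered most large changes at their size but only a minority of small ones, of the size seen for Ptch1 and Boc, and gave somewhat more false calls than the nominal share. A gene that was not called is thus not shown to be equal. Alternatives were DESeq2 1.42.0, RLE factors, library totals, no filter, only the libraries compared, brain as a block, and leaving out each library. The series' design text states that both regions came from the same brains, and deviations of same-numbered libraries correlated across genes at 0.26 for whole tissue and 0.16 for sorted cells. Whether a replicate is 1 embryo or a pool is not given, so p-values measure the spread between these samples.

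The members and lists were chosen with earlier results of these data known. Named genes are the 9 members and, of the other Hedgehog lists, genes called in either region comparison or otherwise the 2 most abundant, and some results under this rule are not reported here. Map2 was matched under its older symbol Mtap2. Likeness to Shh and Gli1 used log2(CPM + 0.5) of genes with a mean of at least 1 CPM. Promoter windows are RefSeq's.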

Additional observations from a re-analysis of the deposited data

Results flagged for a closer look

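The region effect differed between sorted cells and whole tissue, by the interaction term of edgeR's quasi-likelihood fit, for 1 of the 9 members and 9 other listed genes. Of all tested genes 1.34% were called in that contrast. For Hhip the region effect was larger in sorted cells by 1.94 ± 0.32 on the log2 scale (edgeR adjusted p = 0.0093). The ratio of hindbrain to telencephalic CPM was 10.9 and 11.9 in the brains of the sorted cells and 2.78 and 2.93 in those of the whole tissue. For Foxf2, a target gene also known from pericytes, the region effect was larger by 2.09 ± 0.43 (edgeR adjusted p = 0.0345). The Hhip and Foxf2 calls were each lost in some runs with 1 library left out. In the same contrast 5 of 9 mural cell markers were called: Pdgfrb at 1.97, Rgs5 at 3.28, Cspg4 at 1.38, Kcnj8 at 3.07 and Abcc9 at 2.25. The mesenchymal marker Col3a1 stood at 1.47, the endothelial marker Cdh5 at 1.61 and the macrophage marker Lyz2 at 1.78. The part of these cells in the Hhip and Foxf2 values was not tested. Groups of 2 libraries are too small for a check of single outlying libraries.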

How the results depend on the processing

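The number of called members in whole tissue was 5 under RLE factors, library totals, no filter, DESeq2, the 4 whole libraries alone and the replicate block by brain, and 2 to 5 when 1 library was left out. In sorted cells it was 6 with DESeq2 and the replicate block, 5 with RLE factors or no filter, 4 with library totals or the 4 sorted libraries alone, and 3 to 6 with 1 library left out. The interaction count was 1, and 0 to 1 with 1 library left out. For telencephalic sorted against whole the count of 3 became 1 with library totals and 1 to 3 with 1 library left out. For the hindbrain the count of 1 became 3 with library totals, 3 without the filter and 1 to 2 with 1 library left out. The replicate block, run for both region effects and the interaction, changed no call of a member in them. It was not run for sorted against whole, which compares different brains. Where counts or calls moved, the cause was not tested.

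Directions changed for differences that were not called. With library totals the region effect was 0.016 for Gli3 and 0.069 for Csnk1a1 in whole tissue, and 0.15 for Smo, 0.18 for Gsk3b and 0.14 for Csnk1a1 in sorted cells. For sorted minus whole the same scale gave Ptch1 -0.081, Smo -0.32 and Gli2 -0.22 in the telencephalon and Ptch1 -0.086 in the hindbrain. Telencephalic Smo was -0.015 with RLE factors or DESeq2 and -0.0079 with only the libraries compared. Sufu in sorted cells was -0.0077 with the replicate block. With 1 library left out, the region effect in whole tissue ranged from -0.17 to 0.030 for Gli3, -0.12 to 0.72 for Scube1, -0.024 to 0.090 for Gsk3b and -0.038 to 0.016 for Csnk1a1. In sorted cells it ranged from -0.10 to 0.0038 for Smo, -0.41 to 0.34 for Sufu, -0.052 to 0.0025 for Gsk3b and -0.19 to 0.043 for Csnk1a1. The interaction ranged from -5.46 to 0.97 for Shh and -0.63 to 0.12 for Sufu. Sorted minus whole ranged from -1.75 to 4.69 for Shh, -0.048 to 0.049 for Smo and -0.28 to 0.028 for Sufu in the telencephalon, and from -0.30 to 0.026 for Gli2 in the hindbrain. The values of -5.46 and 4.69 come from leaving out telencephalic whole replicate 1, where the remaining library held 0 Shh counts, and are no bound.

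Of all genes, 909 were called in whole tissue, 1587 with those 4 libraries alone and 316 to 1341 with 1 library left out. In sorted cells 2383 were called, 1460 with those libraries alone and 1051 to 3253 with 1 left out. The interaction count of 211 became 441 without the filter, 335 with DESeq2, 337 with the replicate block and 58 to 473 with 1 left out. For the telencephalic comparison 3517 became 1519 to 4501 with 1 library left out, and for the hindbrain 3472 became 2236 with those libraries alone and 1691 to 3873 with 1 left out. A group left with 1 library is assumed to vary like the others. Depth limits Shh and Gli1 in the telencephalic libraries, where 0 to 9 counts stand behind a value.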

Other observations

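Genes of the Hedgehog lists also differed between sorted cells and whole tissue, and those named here were chosen after their values were seen. Gas1, a membrane-anchored co-receptor for Shh, was lower in sorted cells by -1.04 ± 0.17 in the telencephalon (edgeR adjusted p = 0.00106) and -1.05 ± 0.17 in the hindbrain (edgeR adjusted p = 0.000949). Lrp2, a large endocytic receptor of epithelia that can bind Shh, was higher by 0.66 ± 0.14 (edgeR adjusted p = 0.00655) and 1.12 ± 0.14 (edgeR adjusted p = 0.000184). Of the reported targets, Ccnd1 was lower in sorted cells by -1.57 and -1.51, and Mycn, a growth regulator of progenitors, by -2.89 and -2.26. Cycling-cell markers summed to 153 to 254 CPM in whole tissue and 54.8 to 123 CPM in sorted cells, and their part in the Ccnd1 and Mycn values was not tested.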
